A study of Mus musculus with 6 samples.

Results

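The genes described here are 34 members of the integrated stress response and the unfolded protein response, of 18193 genes measured on 6 mouse expression arrays. They were matched by gene symbol, and all 34 had at least 1 probe set. By role they were 7 transcription factors, 14 target genes of Atf4, 10 chaperones and folding factors of the endoplasmic reticulum (ER), and 3 factors of ER-associated degradation. The samples were CD4+CD25- T cells from lymph nodes of C57BL/6 mice, grown for 2 days towards a regulatory T cell fate on plate-bound anti-CD3 (2 µg/ml) and anti-CD28 (1 µg/ml), with TGF-β1 at 5 ng/ml, IL-2 at 200 U/ml and retrovirus added on day 1. The 3 control samples carried a bHLH-ER construct and the 3 E47 samples an E47-ER construct. E47 is a basic helix-loop-helix transcription factor made from the Tcf3 gene, and here ER in a construct name stands for the estrogen receptor domain that tamoxifen releases into the nucleus. Cells of both groups were sorted as CD4+Thy1.1+ and then kept for 6 hours with IL-2, both antibodies and 1 µM tamoxifen. Each of the 3 experiments gave 1 control and 1 E47 sample. Mouse age was 7, 8 and 9 weeks in experiments 1 to 3, and each sample pooled 3, 3 and 4 mice in that order. The sources used here describe the bHLH-ER construct by name alone. No sample lacked tamoxifen or TCR stimulation, so a stress response common to both groups cannot be seen in the comparison.

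In the integrated stress response, kinases phosphorylate the translation factor eIF2α when amino acids are short, when unfolded proteins collect in the ER or when virus is sensed. General translation then slows while the mRNA of Atf4 is translated more, so Atf4 activity is set largely at the level of translation. The Atf4 protein pairs with C/EBP factors and raises genes of amino acid synthesis and uptake. In the unfolded protein response, the ER sensor IRE1 splices Xbp1 mRNA and the sensor ATF6 is cut to an active form, and both products raise chaperones and degradation factors of the ER. Activated T cells take up more amino acids and make more serine and one-carbon units as they grow.

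Factors of both pathways bind known short elements in promoters, and a few promoters of the members are printed to show these elements. The printed promoters were picked among those that hold an element, so they do not show how the role groups differ. RefSeq promoter entries of GRCm38.p6, spanning 250 bases before to 50 bases after a start, matched 31 of the 34 members. Slc7a5, Hyou1 and Manf had no entry. The C/EBP-ATF response element was searched as TGATGNAA, and the ER stress response element as CCAAT and CCACG parted by 9 bases, both on both strands, and these motifs overlapped in none of the promoters printed. The lines give the 250 bases before the start, 5′ to 3′ on the gene's strand, with these elements and the second ER stress element (ATTGG and CCACG parted by 1 base) in capitals.
Atf3, chr1:191183334-191183583, minus strand: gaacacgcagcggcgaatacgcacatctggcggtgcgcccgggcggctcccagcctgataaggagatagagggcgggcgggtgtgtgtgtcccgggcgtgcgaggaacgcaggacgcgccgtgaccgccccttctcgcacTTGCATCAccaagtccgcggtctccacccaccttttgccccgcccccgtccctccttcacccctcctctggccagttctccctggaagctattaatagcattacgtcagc
Chac1, chr2:119350992-119351241, plus strand: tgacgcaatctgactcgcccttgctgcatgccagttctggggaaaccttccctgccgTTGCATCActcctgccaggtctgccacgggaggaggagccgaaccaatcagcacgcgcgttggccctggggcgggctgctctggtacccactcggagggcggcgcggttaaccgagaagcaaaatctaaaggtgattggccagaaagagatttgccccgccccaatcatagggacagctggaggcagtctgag
Asns, chr6:7693210-7693459, minus strand: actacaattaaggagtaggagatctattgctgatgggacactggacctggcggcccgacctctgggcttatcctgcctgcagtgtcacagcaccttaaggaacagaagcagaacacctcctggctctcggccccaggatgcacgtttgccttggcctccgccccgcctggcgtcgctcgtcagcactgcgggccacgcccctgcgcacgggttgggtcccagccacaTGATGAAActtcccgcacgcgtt
Hspa5, chr2:34771840-34772089, plus strand: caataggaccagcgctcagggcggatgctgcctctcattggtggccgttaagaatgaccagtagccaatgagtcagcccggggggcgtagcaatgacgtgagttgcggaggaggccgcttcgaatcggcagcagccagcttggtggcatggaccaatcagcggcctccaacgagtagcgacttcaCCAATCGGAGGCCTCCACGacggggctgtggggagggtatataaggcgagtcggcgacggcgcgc
Hsp90b1, chr10:86705445-86705694, minus strand: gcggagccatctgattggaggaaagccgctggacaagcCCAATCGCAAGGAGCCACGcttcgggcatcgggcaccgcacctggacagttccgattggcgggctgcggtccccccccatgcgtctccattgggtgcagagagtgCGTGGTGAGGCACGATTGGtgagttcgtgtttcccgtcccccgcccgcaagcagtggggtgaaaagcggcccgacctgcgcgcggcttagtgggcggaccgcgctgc
Creld2, chr15:88819396-88819645, plus strand: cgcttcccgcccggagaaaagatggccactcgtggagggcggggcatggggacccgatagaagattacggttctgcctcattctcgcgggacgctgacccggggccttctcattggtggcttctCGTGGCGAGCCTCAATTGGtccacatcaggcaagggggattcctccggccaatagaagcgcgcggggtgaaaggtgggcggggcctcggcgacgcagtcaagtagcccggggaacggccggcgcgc
Herpud1, chr8:94386179-94386428, plus strand: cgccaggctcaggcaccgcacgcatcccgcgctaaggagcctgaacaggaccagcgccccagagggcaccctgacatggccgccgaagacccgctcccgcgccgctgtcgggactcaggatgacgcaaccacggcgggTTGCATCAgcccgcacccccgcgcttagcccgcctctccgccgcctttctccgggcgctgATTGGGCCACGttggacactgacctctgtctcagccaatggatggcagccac

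The C/EBP-ATF element was found in 6 of 13 Atf4 targets with a promoter entry (Trib3, Chac1, Asns, Slc7a11, Vldlr and Pck2), in 1 of 7 transcription factors (Atf3) and in 0 of 8 chaperones, against 4.51% of the 27025 genes of the promoter table. The ER stress element was found in 5 of 8 chaperones (Hspa5, Creld2, Calr, Hsp90b1 and Pdia6) and in 0 of 13 Atf4 targets, against 0.137% of all genes. Herpud1, which brings proteins to the ER degradation machinery, held both a C/EBP-ATF element, beginning at -112 from the start, and the second ER stress element, which 0.044% of all genes held. E boxes, the sites that E47 binds, were searched as CAGCTG and CAGGTG on both strands. Of the 31 members 3 held CAGCTG (Chac1, Vldlr and Calr) and 5 held CAGGTG (Atf4, Atf5, Xbp1, Dnajb9 and Hsp90b1), against 18.3% and 22.6% of all genes. The element TGACGTGG of the unfolded protein response was in 0 of the 31 and in 0.714% of all genes. A match is a string of letters in a short window and does not show that a factor binds there.

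Cebpb was the 1 member that passed the test, and it rose. Each difference below is a log2 intensity of E47 minus control, tested over all genes with limma and the experiment as a block (the paired fit), with a threshold of 0.05 on the adjusted p. Of all 18193 genes 1.14% passed, 0.781% upwards and 0.363% downwards, so 1 of 34 members is close to the share among all genes. Atf3, a stress-induced repressor and activator of the same family as Atf4, and Edem1, which draws misfolded glycoproteins out of the folding cycle, had differences of 0.89 and 0.71 and an adjusted p just above the threshold (0.0598 and 0.0635). The E47 samples all lay above the control samples in 5 of 34 members (Cebpb, Atf3, Cebpg, Phgdh and Edem1), against 4.65% of all genes, and all below in 1 (Creld2), against 7.13%. Among the 14 Atf4 targets the mean difference was above 0 in 14, while among the 10 ER chaperones it was below 0 in 8 (7 under median centring). Without the samples of experiment 3 the means of the targets Shmt2 and Vldlr were below 0. Without those of experiment 1 the means of Shmt2 and Slc7a11 were below 0.

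**Figure D1:**
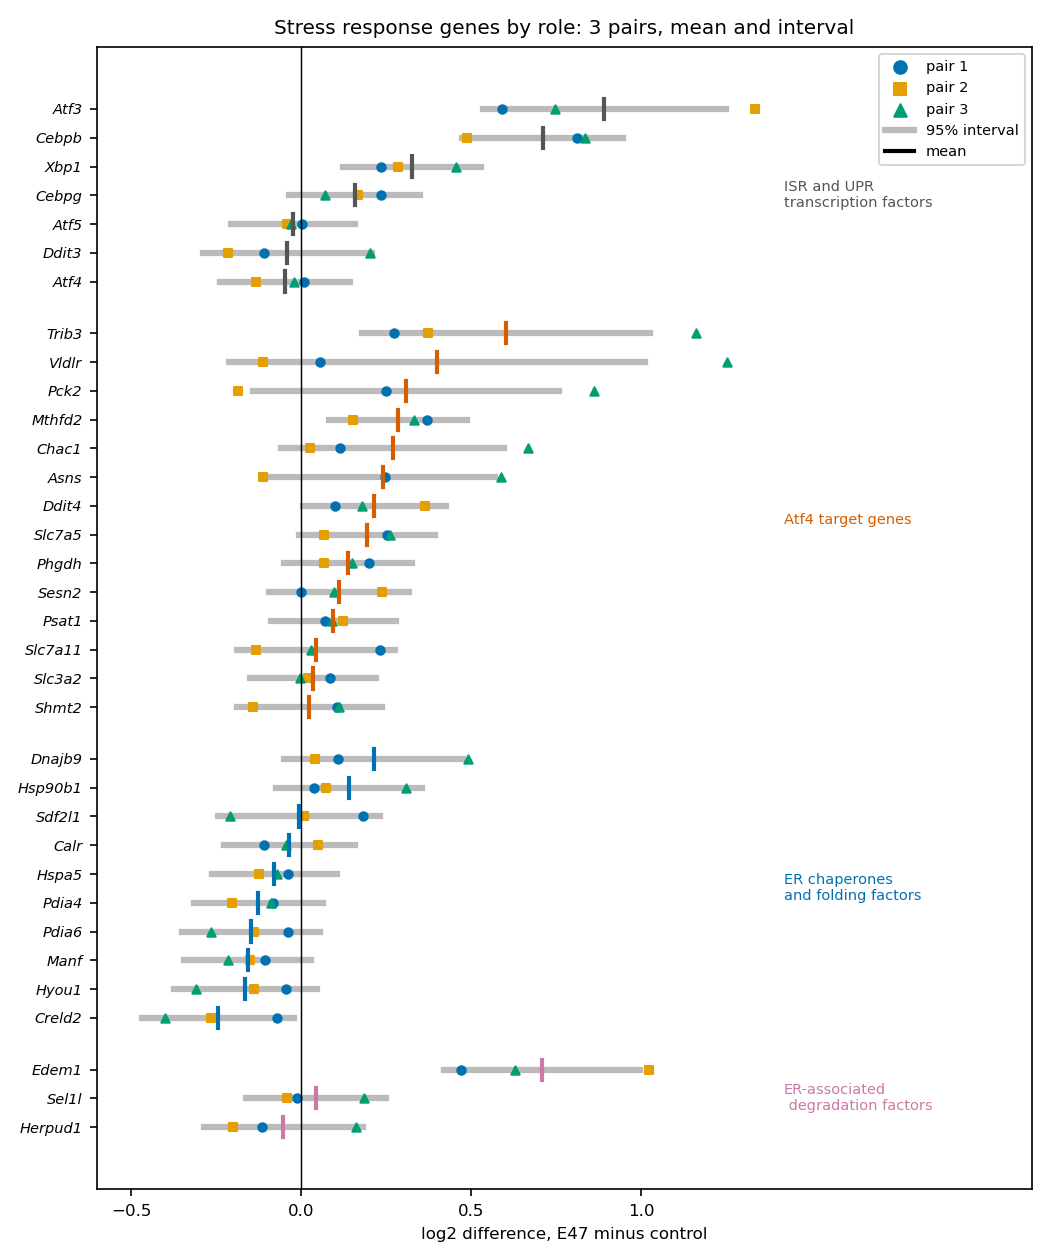
Log2 difference of E47 minus control for each of the 34 genes, in groups by role, with the 3 pairs as points, the mean as a short vertical bar and the 95% interval of the paired fit in grey. All 14 Atf4 target means lie to the right of 0 and 8 of the 10 chaperone means (7 under median centring) to the left, and most intervals include 0.

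Among the transcription factors, Cebpb encodes C/EBPβ, a partner of Atf4 that also acts in cytokine responses. Its log2 level, here and below in the order of the experiments, was 8.27, 8.73 and 8.29 in the control samples against 9.08, 9.22 and 9.13 in the E47 samples. Every E47 sample lay above every control sample, and the control of experiment 2 was the highest control. The difference was 0.71 (SE 0.10, adjusted p = 0.0326, 1.64-fold), with 0.81, 0.49 and 0.83 in pairs 1 to 3. Its other, dimmer probe set had a difference of 0.43. In bulk RNA a change in the number of cells of a type and in RNA per cell cannot be told apart. Leaving out pair 1, 2 or 3 ended the call (adjusted p = 0.0513, 0.0646 and 0.206), as did leaving out the block (0.189) or taking the mean over both probe sets (0.0592).

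Atf3 had log2 levels of 8.08, 7.91 and 8.11 in the control samples against 8.67, 9.25 and 8.86 in the E47 samples. The groups did not overlap, and the pair of experiment 2 was the farthest apart. The mean difference was 0.89 (SE 0.15, 95% interval 0.53 to 1.25, adjusted p = 0.0598), with 0.59, 1.34 and 0.75 in the 3 pairs. Its adjusted p was 0.0214 without pair 1 and 0.0464 with the experiment as a random effect, but 0.147 without pair 2, 0.242 without pair 3 and 0.126 without the block.

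Xbp1, whose spliced form is the transcription factor of the IRE1 branch, had log2 levels of 12.17, 12.34 and 11.78 in the control samples against 12.41, 12.63 and 12.23 in the E47 samples. The level was higher in E47 in each pair (0.23, 0.28 and 0.46), but the groups overlapped, with both samples of experiment 2 the highest of their group and both of experiment 3 the lowest. Its mean difference was 0.33 (SE 0.08, adjusted p = 0.213), and its 4 probe sets gave 0.33, 0.44, 0.45 and 0.23. The arrays were not read here for the spliced against the unspliced form.

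Atf4 itself was at 12.28, 12.10 and 12.36 in the control samples against 12.28, 11.97 and 12.35 in the E47 samples. The samples of experiment 2 were the lowest of each group, and the difference was -0.05 (SE 0.08, 95% interval -0.24 to 0.14, adjusted p = 0.845). Its other 2, dimmer probe sets gave 0.11 and 0.01, so its direction depends on the probe set. Ddit3 encodes CHOP, a death-promoting factor of prolonged ER stress. It was at 8.02, 8.13 and 7.74 in the control samples against 7.91, 7.92 and 7.94 in the E47 samples. Its pairs went both ways (-0.11, -0.22 and 0.20), with a mean of -0.04 (SE 0.10, 95% interval -0.29 to 0.21, adjusted p = 0.901). Atf5, which like Atf4 is controlled in translation, had a mean difference of -0.02 (SE 0.08). Cebpg, another C/EBP partner of Atf4, had 0.16 (SE 0.08, adjusted p = 0.499), and its E47 samples (9.10 to 9.23) lay above its control samples (8.92 to 9.07).

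**Figure D2:**
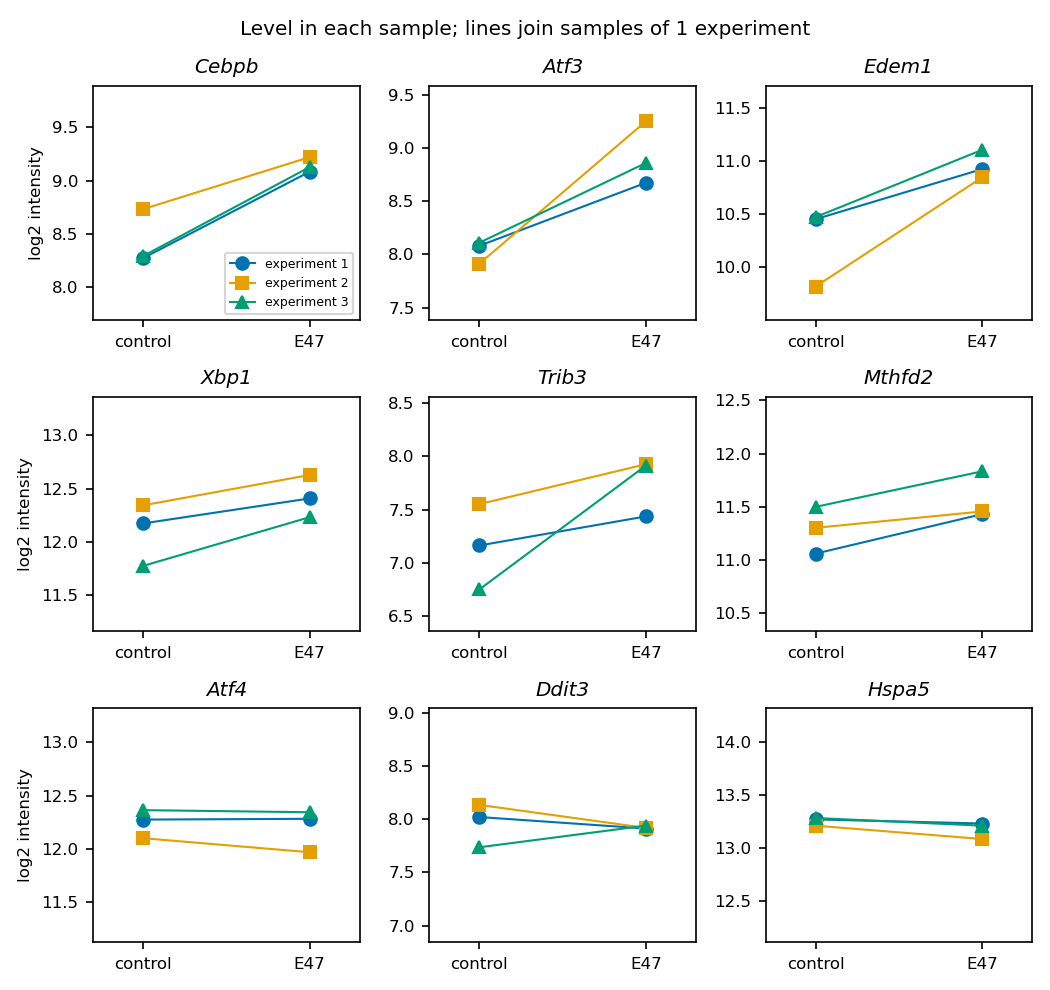
Log2 intensity of 9 genes in every sample, control on the left and E47 on the right of each panel, with lines joining the 2 samples of an experiment and all axes spanning the same log2 range. Lines rise in all 3 experiments for Cebpb, Atf3, Edem1, Xbp1, Trib3 and Mthfd2, while those of Atf4 and Hspa5 are almost flat and those of Ddit3 go both ways.

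The 14 Atf4 targets had mean differences between 0.02 (Shmt2) and 0.60 (Trib3), with a median of 0.20, beside a median of -0.03 over all genes. A mean above 0 was found in 42.3% of all genes. Of the 14, 7 were higher in E47 in all 3 pairs (Trib3, Chac1, Ddit4, Psat1, Phgdh, Mthfd2 and Slc7a5), against 14.4% of all genes. None passed the test in the paired fit of limma, and 3 had an unadjusted p under 0.05 upwards (Trib3, Ddit4 and Mthfd2), against 5.1% of all genes. With a prior variance that follows intensity, Mthfd2 passed (adjusted p = 0.0211), as did 3.01% of all genes.

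Trib3, a pseudokinase that Atf4 and CHOP induce and that in turn restrains them, was at 7.16, 7.55 and 6.75 in the control samples against 7.44, 7.93 and 7.91 in the E47 samples. Control replicate 3 was the lowest sample, and the pairs differed by 0.27, 0.37 and 1.16. The mean was 0.60 (SE 0.18, adjusted p = 0.267), and 0.32 without pair 3. Mthfd2, a mitochondrial enzyme of the folate cycle, was at 11.06, 11.30 and 11.50 in the control samples against 11.43, 11.46 and 11.83 in the E47 samples. Its groups overlapped, and all 3 pairs had the same direction (0.37, 0.15 and 0.33; mean 0.29, SE 0.08, adjusted p = 0.271).

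The serine pathway members Phgdh and Psat1, which make serine from a glycolysis product, had means of 0.14 and 0.10, both higher in each pair. In Phgdh every E47 sample (12.83 to 12.97) lay above every control sample (12.69 to 12.77). Shmt2, which splits serine for the one-carbon pool, had 0.02, with pair 2 at -0.14. Asns, the asparagine synthetase, had 0.25, -0.11 and 0.59 in the 3 pairs, with a mean of 0.24 (SE 0.14).

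Of the transporter genes, Slc7a5 and Slc3a2 encode the chains of the large neutral amino acid carrier LAT1 and had means of 0.19 (SE 0.08) and 0.03 (SE 0.08). Slc7a11, the cystine carrier, had a mean of 0.04 and lay between 3.43 and 3.82 on all arrays, below the median gene level of 6.08. Whether it was detected above background was not tested. Chac1, which breaks down glutathione, had a mean of 0.27 (SE 0.14). Ddit4 and Sesn2, both inhibitors of the growth kinase complex mTORC1, had 0.22 and 0.11. The other probe set of Sesn2 gave -0.10, and 1 of the 3 other probe sets of Shmt2 gave -0.09, so the direction of these genes depends on the probe set.

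In 7 of the 14 targets the highest difference was that of pair 3, against 30.2% of all genes. Vldlr, a lipoprotein receptor, had 0.06, -0.11 and 1.25 in pairs 1 to 3, and Pck2, the mitochondrial enzyme that makes phosphoenolpyruvate, had 0.25, -0.19 and 0.86. Chac1 had 0.12, 0.03 and 0.67. In these 3 genes, chosen after their values were seen, E47 replicate 3 was the highest of the 6 samples. That sample was also the highest in Asns, Ddit4, Mthfd2, Slc7a5 and Slc7a11. It was not the highest in Trib3, Sesn2, Psat1, Phgdh, Shmt2 and Slc3a2. Vldlr was at 6.15 there and between 4.90 and 5.12 elsewhere, Pck2 at 8.77 against 7.80 to 8.08, and Chac1 at 6.94 against 6.05 to 6.33. Vldlr is given by the brightest of its 6 probe sets, and the others had differences from -0.09 to 0.38. In the probe set with 0.38 E47 replicate 3 was also the highest sample (4.28). In that with -0.09 it was the lowest (3.93), so the direction depends on the probe set. The mean level of Vldlr, 5.21, was below the median gene level of 6.08. Without pair 3 the median of the 14 targets was 0.085.

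The 10 ER chaperones and folding factors had mean differences between -0.25 (Creld2) and 0.21 (Dnajb9), with a median of -0.10. Of these 8 (7 under median centring) had a mean below 0, against 57.7% of all genes, and in 5 of 10 the lowest difference was that of pair 3, against 38.3%. In all 3 pairs 6 were lower in E47 (Hspa5, Hyou1, Pdia4, Creld2, Manf and Pdia6), against 19.9% of all genes. None passed the test in limma, and 1 had an unadjusted p under 0.05 downwards (Creld2), against 6.9% of all genes.

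Hspa5 encodes BiP, the chief chaperone of the ER and the usual gauge of the unfolded protein response. It was at 13.27, 13.21 and 13.28 in the control samples against 13.23, 13.09 and 13.21 in the E47 samples. The groups overlapped within a narrow range, and the difference was -0.08 (SE 0.08, 95% interval -0.26 to 0.11, adjusted p = 0.731). Its 3 probe sets gave -0.08, -0.03 and -0.07.

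Creld2, a small ER folding factor, was at 9.81, 9.86 and 9.91 in the control samples against 9.74, 9.59 and 9.51 in the E47 samples. Every E47 sample lay below every control sample, with a mean difference of -0.25 (SE 0.09, adjusted p = 0.378). Manf, a secreted protein of stressed ER, was at 12.13, 11.88 and 12.01 in the control samples against 12.02, 11.73 and 11.80 in the E47 samples. It was lower in each pair (-0.11, -0.15 and -0.21), and its mean was -0.16 (SE 0.08, adjusted p = 0.491).

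Hyou1, an exchange factor for BiP, had a mean of -0.16, and its other, dimmer probe sets gave -0.07 and 0.02. Pdia6 and Pdia4, which rearrange disulfide bonds, had -0.15 and -0.13. Calr, the lectin chaperone calreticulin, had -0.03 and Sdf2l1, a BiP cofactor, had -0.01, both with pairs of either sign. Dnajb9, a co-chaperone that restrains IRE1, and Hsp90b1, which encodes the HSP90 form of the ER, were the 2 with means above 0 (0.21 and 0.14), higher in each pair and most so in pair 3 (0.49 and 0.31). The other probe set of Hsp90b1 gave -0.18, so its direction depends on the probe set.

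Of the 3 degradation factors, Edem1 was at 10.45, 9.82 and 10.47 in the control samples against 10.92, 10.84 and 11.10 in the E47 samples. The groups did not overlap, and control replicate 2 was the lowest sample. Its mean difference was 0.71 (SE 0.12, 95% interval 0.42 to 1.00, adjusted p = 0.0635), with 0.47, 1.02 and 0.63 in the pairs and 0.74 in its other probe set. The adjusted p was 0.0281 without pair 1 and 0.0306 with the mean over its probe sets, but 0.253 without pair 2, 0.272 without pair 3 and 0.427 without the block. Herpud1 was at 9.88, 9.76 and 9.81 in the control samples against 9.76, 9.56 and 9.97 in the E47 samples, with pairs of either sign and a mean of -0.05 (SE 0.10, adjusted p = 0.865). Sel1l, the adaptor of the degradation ligase Hrd1, had a mean of 0.04 (SE 0.09). Its 5 probe sets gave 0.04, -0.04, 0.17, 0.25 and 0.07, so its direction depends on the probe set.

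Setting the 2 main branches side by side, the median of the Atf4 targets was above that of the chaperones in each pair. The target medians were 0.16, 0.05 and 0.22 in pairs 1 to 3, and the chaperone medians were -0.04, -0.13 and -0.15. The gap between them was 0.20, 0.18 and 0.37, with a mean of 0.25 ± 0.11 (SD, n = 3 pairs). From the mean differences the gap was 0.31, and it was 0.17 without pair 3. These medians are descriptions of lists chosen with earlier results known and carry no test. In pair 2, 5 of 14 targets were lower in E47, against 1 of 14 in each of the other pairs.

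**Figure D3:**
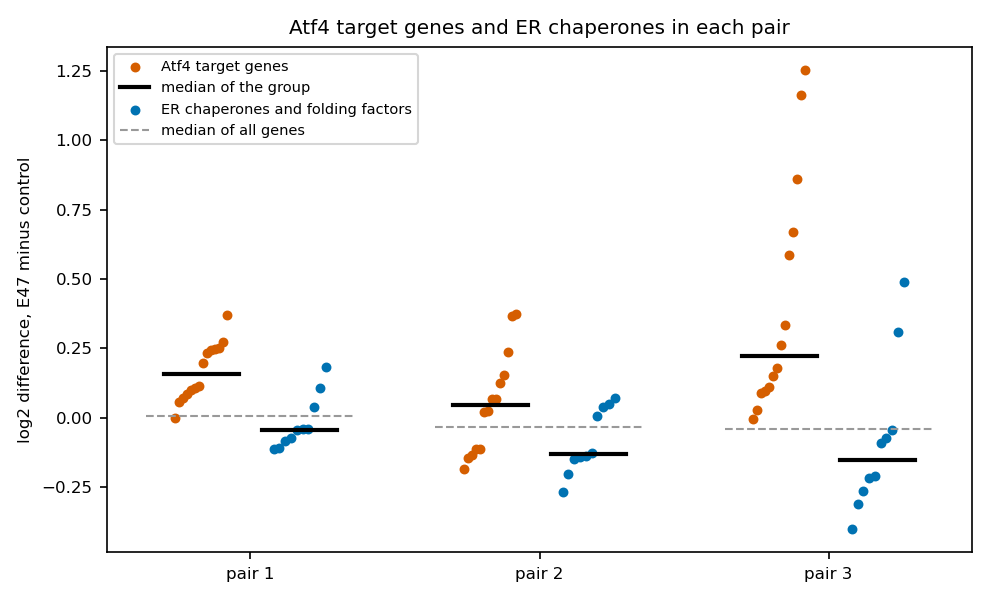
Log2 difference of E47 minus control for the 14 Atf4 targets and the 10 ER chaperones in each pair, with group medians as black bars and the median of all genes as a dashed line. The target median lies above the chaperone median in each pair, by 0.20, 0.18 and 0.37, and the widest scatter of targets is in pair 3.

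Levels were also compared between the experiments, without regard to the construct. In the F test of the experiment terms, 0 of 34 members passed in the paired fit of limma against 3.2% of all genes, and 10 had an unadjusted p under 0.05 against 17.9%. With a prior variance that follows intensity 10 of 34 passed, against 9.97% of all genes. With genes below the median level left out 6 of 32 passed, against 14.8% of the 9096 genes tested. Asns, with experiment means of 9.76, 9.14 and 10.13, and Sesn2, with 7.48, 6.90 and 7.36, had the lowest p (adjusted p = 0.0615 and 0.0671). Experiment 2 had the lowest mean in 8 of 14 Atf4 targets, 6 of 10 chaperones and 3 of 3 degradation factors, against 39.9% of all genes. Atf4 was lowest there too (12.28, 12.04 and 12.36), whereas 5 of 7 transcription factors, Cebpb and Xbp1 among them, had their highest mean there, against 35% of all genes. Mouse age rose with the experiment number and the number of mice differed, so these cannot be told apart from the experiment.

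**Figure D4:**
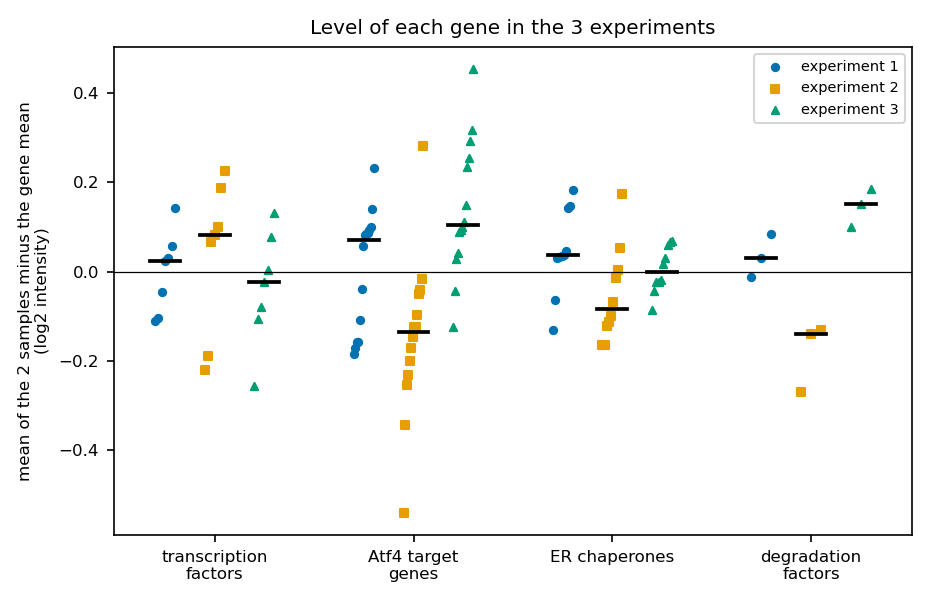
Mean log2 intensity of the 2 samples of each experiment minus the gene's mean over experiments, for the members in 4 role groups, with group medians as bars. In experiment 2 the Atf4 targets, the chaperones and the degradation factors sit mostly below 0 and the transcription factors mostly above.

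Other genes of the pathways were counted in 10 lists holding 120 measured genes. In the paired fit of limma 3 of them rose and 0 fell, beside 0.781% called upwards and 0.363% downwards among all genes. All 3 were in the list of other Atf4 and CHOP targets. Bcl2l11, the gene of the apoptosis inducer Bim, was at 8.13, 8.35 and 7.69 in the control samples against 10.01, 10.79 and 9.70 in the E47 samples. The groups lay far apart, and it rose by a log2 difference of 2.11 (SE 0.12, adjusted p = 0.00111), and its 5 probe sets gave 1.60 to 2.14. Jdp2, a repressor that pairs with AP-1 and ATF proteins, was at 5.12, 5.17 and 4.80 in the control samples against 5.79, 6.61 and 6.07 in the E47 samples. Its groups did not overlap, and it rose by 1.13 (SE 0.15, adjusted p = 0.0304), although its other probe set had -0.11. The mean level of Jdp2, 5.59, was below the median gene level of 6.08. Vegfa, the vascular growth factor, was at 6.31, 6.40 and 6.32 in the control samples against 6.91, 7.35 and 7.61 in the E47 samples. It rose by 0.94 (SE 0.13, adjusted p = 0.0377), and its other probe set had 0.09. Jdp2 did not pass without pair 2 (adjusted p = 0.142), without pair 3 (0.214), without the block (0.174) or with the mean over its probe sets (0.0867). Vegfa did not pass without pair 2 (adjusted p = 0.194), pair 3 (0.161) or the block (0.147). Bcl2l11 passed without any 1 pair and without the block, where its adjusted p was 0.0444. With 1 array left out of the limma fit without the block its adjusted p ran from 0.0226 to 0.221, so it did not always pass. The other 9 genes of this list had differences from -0.50 (Nupr1, unadjusted p under 0.05) to 0.10 (Eif4ebp1). Over all 12 genes of the list 7 had a mean below 0, against 57.7% of all genes, and the median was -0.05.

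The remaining Atf4-linked lists had medians between -0.10 and 0.07, beside -0.03 over all genes, and no gene of theirs passed in the paired fit of limma. Of their 50 genes 3 had an unadjusted p under 0.05 upwards (Eif2ak3, Slc43a1 and Cth) and 0 downwards, beside 5.1% and 6.9% of all genes. The 19 aminoacyl-tRNA synthetases, which load amino acids on tRNA, had a median of -0.03 and ran from -0.14 (Iars) to 0.09 (Vars). Amino acid transporters other than the members had a median of -0.10 over 10 genes, and Slc43a1, a carrier of large neutral amino acids, had the lowest p among them (0.19, SE 0.08, adjusted p = 0.395). Of 10 other genes of serine, one-carbon and proline synthesis 8 had a mean below 0, against 57.7% of all genes. Their median was -0.08. Cth, which makes cysteine, had 0.46 (SE 0.11, adjusted p = 0.158). Of the 11 kinases, phosphatases and sensors upstream of both branches 10 had a mean above 0, against 42.3% of all genes. Their median was 0.07, and Eif2ak3, the ER stress kinase PERK, had 0.34 (SE 0.11, adjusted p = 0.315).

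In the other protein folding lists no gene passed in the paired fit of limma. Other ER folding and export factors had a median of -0.03 over 19 genes, with P4hb, a disulfide isomerase, at -0.20 (SE 0.08). Other degradation factors had a median of -0.02 over 12 genes, with Syvn1, which encodes the ligase Hrd1, at -0.21 (SE 0.08, lower in each pair). Of 9 cytosolic heat shock genes 8 had a mean below 0, against 57.7% of all genes. Among them Hsph1, an exchange factor of HSP70, had -0.33 (SE 0.08, adjusted p = 0.201). The oxidative stress and mitochondrial folding lists had medians of 0.01 and -0.02. In them the lowest p was that of Osgin1, an oxidative stress gene (-0.20, SE 0.08), and of Clpx, the unfoldase of a mitochondrial protease (0.41, SE 0.08, adjusted p = 0.108). Of the 58 genes of these 5 lists 1 had an unadjusted p under 0.05 upwards (Clpx) and 3 downwards (Syvn1, Hsph1 and Hspb1, a small heat shock protein), shares below the 5.1% and 6.9% of all genes.

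**Figure D5:**
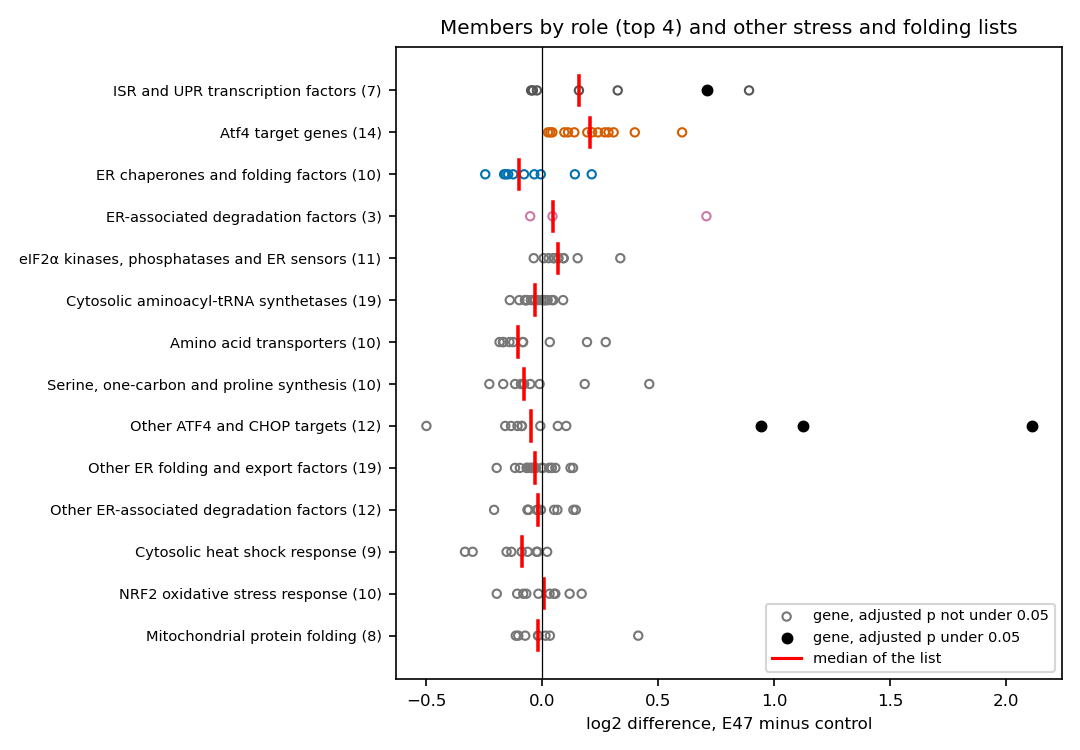
Mean log2 difference of E47 minus control for each gene of the 4 role groups and of 10 other lists, with genes past the threshold filled in black, list medians in red and the number of genes in brackets. The filled points are Cebpb among the members and Vegfa, Jdp2 and Bcl2l11 among other Atf4 and CHOP targets.

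The labelled cell type and RNA quality were set beside these values. The 7 T cell markers measured were all above the median gene level. Their summed intensity was 20441 to 24601 in control and 24144 to 28828 in E47 samples, and 1 of them, Thy1, rose (0.82, adjusted p = 0.0138). The cells were sorted on Thy1.1, which was not read apart from other Thy1 RNA here. The 7 B and plasma cell markers were all below the median gene level, with sums of 202 to 229 in control and 198 to 220 in E47. For 8 myeloid and dendritic markers every E47 sum (242.0 to 263.0) lay below every control sum (263.4 to 283.0). Of these 8 markers 7 were below the median gene level, and 3 had every E47 sample below every control sample, against 7.13% of all genes. Control and E47 sums were 140 to 209 and 189 to 327 for 2 CD8 markers, 212 to 604 and 266 to 545 for 3 NK markers and 122 to 145 and 108 to 136 for 5 stromal and red cell markers. Below the median gene level were 0 of the 2 CD8, 1 of the 3 NK and 5 of the 5 stromal and red cell markers. The highest NK sum of each group was that of experiment 2 (604 in control and 545 in E47). The log2 gap between the 3′ and 5′ probe sets of actin was 0.21 to 0.25 in control and 0.22 to 0.29 in E47, and that of Gapdh was -0.12 to -0.07 and -0.15 to -0.08. The part of other cells or of RNA quality in the differences above was not tested. Tcf3, the gene that gives E47, had a difference of -0.01 (SE 0.08), and its other, dimmer probe sets gave 0.28 and 0.02. The position of its probe sets relative to the construct was not analysed here.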

How the data were processed

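The 6 arrays measured biotin-labelled total RNA. Each array's deposited table gives a linear intensity for every probe set. The tool is RMA, per the submitters' processing notes, which name no version. RMA equalises the arrays, so a change common to most genes would not be seen. The log2 of each intensity was taken with no pseudocount. Of 45101 probe sets, 34945 carried 1 gene symbol in the platform annotation, and each gene kept its probe set of highest mean log2, which gave 18193 genes. The 34 members had 76 probe sets, and 24 of them had several. No dim gene was removed.

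E47 was compared with control in limma 3.58.1 (R 4.3.3, lmFit and eBayes, two-sided, Benjamini-Hochberg over all genes, threshold 0.05) with the replicate number as a fixed block. The block comes from the design text, which gives 3 independent experiments of 1 control and 1 E47 sample. Deviations from the group means correlated at 0.28, 0.67 and 0.43 in same-numbered samples. Differently numbered samples of experiments 1 and 3 also correlated, at 0.25 and 0.18. With 3 samples per group the number of arrays limits the precision.

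The members and lists were chosen with earlier results of these data known, so groups of members are described by counts and medians without a test. Values in every sample are given for Atf4, Ddit3, Atf3, Xbp1, Hspa5, members past the threshold and the 2 members of lowest p in each role. From each other list up to 3 genes past the threshold, or otherwise that of lowest p, were named. Other members are given by their differences. The promoter motifs were matched by exact letters. Alternatives were other block terms, scalings, probe set rules, a filter on dim genes, a pseudocount, an intensity trend and left-out samples.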

Additional observations from a re-analysis of the deposited data

How the results depend on the processing

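The number of members called was 1 with the experiment as a fixed block. It was 0 without the replicate block, 2 with the experiment as a random effect, 2 with the mean over probe sets, 3 with quantile normalization, 3 of 32 with genes brighter than the median only and 5 with an intensity trend in the prior variance (Cebpb, Atf3, Xbp1, Mthfd2 and Edem1). Calls over all genes, 208 (1.14%) with the block, were 45 (0.247%), 92 (0.506%), 201 (1.1%), 249 (1.37%), 362 (3.98% of 9096) and 547 (3.01%) in the same order. Members called ran from 0 to 2 when 1 pair was left out, and from 0 to 1 when 1 array was left out of the fit without the block, and calls over all genes from 41 to 288 and from 15 to 42. Pathway genes called, 3 with the block, were 1 without it and 6 with the trend, from 1 to 3 and from 0 to 1 with a pair or an array left out. In the F test between experiments 0 members passed with the block, beside 3.2% of all genes, and from 0 to 2 with a pair left out. The count was 2 with the mean over probe sets (3.32% of all genes), 2 with log2(value + 16) (5.46%), 6 of 32 with bright genes (14.8%) and 10 with the trend (9.97%).

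The median of the Atf4 targets ran from 0.085 (without pair 3) to 0.22 with a pair left out and from 0.051 (without E47 replicate 3) to 0.29 with an array left out. That of the chaperones ran from -0.12 to -0.08 and from -0.15 to -0.05. The gap between them ran from 0.17 to 0.33 and from 0.14 to 0.34, and it was above 0 in each setting run. Under median centring and both other scalings 14 of 14 targets kept a mean above 0, and 7 or 8 of 10 chaperones one below 0. Without pair 3 the means of Shmt2 (0.11 and -0.14 in pairs 1 and 2) and Vldlr (0.06 and -0.11) were below 0. Without pair 1 the means of Slc7a11 (-0.13 and 0.03 in pairs 2 and 3) and Shmt2 (-0.14 and 0.11) were below 0. With the mean over its 4 probe sets (0.02, 0.01, 0.02 and -0.09) Shmt2 was below 0 too. Direction turned for genes near 0. Atf4 was 0.022 with the mean over probe sets and ran from -0.08 to -0.01 and from -0.12 to 0.067 with a pair or an array left out. Ddit3 ran from -0.16 to 0.048 and from -0.15 to 0.045, Herpud1 from -0.16 to 0.022 and from -0.16 to 0.050, and Iars from -0.20 to -0.071 and from -0.26 to 0.0065. Adjusted over all probe sets, an alternative chosen after seeing the data, Cebpb, Jdp2 and Vegfa did not pass (adjusted p = 0.0578, 0.0521 and 0.0635). Why these settings differ was not tested. Arrays carry no read depth.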
